A study of Mus musculus with 22 samples.

Results

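Lamin A/C was mapped in wildtype mouse dermal fibroblasts with 2 antibodies, 3A6 and E1, and the regions that each antibody gave are compared here. The regions were those of the 4 lists labelled WT, lamin and 3A6 or E1, compared at the same sonication length. They numbered 457213 of the 2189352 regions in the 18 lists of the study. The antibodies marked the same large, gene-poor segments of the genome, but within these segments most of their regions lay at different places.

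The study applied chromatin immunoprecipitation with sequencing (ChIP-seq), which locates a protein on DNA, to lamin A/C, Lap2alpha, BRG1 and CHD4 in wildtype fibroblasts and in fibroblasts lacking Lap2alpha (KO). The groups compared were WT 3A6 and WT E1, each with chromatin sheared for 16 or for 20 cycles, and each was 1 library. All were cultured dermal fibroblasts, labelled as a cell line, with no transgene or treatment given in the labels. Cells were fixed with both disuccinimidyl glutarate (DSG) and formaldehyde and sheared in a Bioruptor bath sonicator. The sample titles name the target LaminA while the series describes it as lamin A/C, and the labels give neither the epitope nor the maker of either antibody. With 1 library per antibody and length no test was run. Means ± SD over the 2 lengths describe the spread between sonication lengths, not between cultures, and 95% Wilson intervals on shares cover counting error only, since neighbouring regions are not independent.

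A-type lamins are intermediate filament proteins that line the inner nuclear membrane, where they hold large, gene-poor stretches of repressed chromatin known as lamina-associated domains. A smaller pool of lamin A/C lies in the nuclear interior, where Lap2alpha binds it, and has been found on more open chromatin. Genes held at the lamina in fibroblasts are typically those of other tissues, such as olfactory receptor, neuronal and liver gene clusters.

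The lists held 86033 regions for 3A6 and 43798 for E1 at 16 cycles, and 182893 and 144489 at 20 cycles. They covered 0.884% and 0.442% of the chromosome spans at 16 cycles and 2.50% and 1.85% at 20 cycles. E1 covered less than 3A6 at both lengths, and more cycles gave longer lists with either antibody. Median widths were close between the antibodies, 252 and 254 bp at 16 cycles and 322 and 316 bp at 20 cycles. The form of the lists differed. Neither 3A6 list had overlapping intervals, whereas the E1 lists held nested intervals of at most 502 and 628 bp, and merging them turned 60560 intervals into 43798 regions at 16 cycles and 255902 into 144489 at 20 cycles. In wildtype cells antibody and list form cannot be told apart. Read depth is unknown from these lists.

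Promoters show what the covered and uncovered sequence looked like, since RefSeq promoter sequence (250 bases before to 50 after a start, GRCm38.p6) was at hand for 17491 of the genes and no genome sequence was used here. Few promoters carried a region: 128 with 3A6 and 62 with E1 at 16 cycles, and 407 and 287 at 20 cycles, of 21262 promoters. These promoters were poor in CG dinucleotides, the pairs that crowd the promoters of broadly expressed genes. Their median number of CG was 2 with 3A6 and 1 with E1 at 16 cycles, and 3 and 2 at 20 cycles, against 13 over all promoters. The share with no CG at all, the same on both strands, was 21.1%, 29.0%, 14.7% and 17.4% in that order, against 4.63% of all promoters. The sequences below are examples seen by both antibodies, by 3A6 alone and by E1 alone at both lengths, written 5′ to 3′ with each CG in capitals. The first pair lay under regions of all 4 lists: the promoter of A1cf, a cofactor of apolipoprotein B mRNA editing, and that of Tlr11, a Toll-like receptor of innate immunity.
A1cf promoter, chr19:31868563-31868862, plus strand: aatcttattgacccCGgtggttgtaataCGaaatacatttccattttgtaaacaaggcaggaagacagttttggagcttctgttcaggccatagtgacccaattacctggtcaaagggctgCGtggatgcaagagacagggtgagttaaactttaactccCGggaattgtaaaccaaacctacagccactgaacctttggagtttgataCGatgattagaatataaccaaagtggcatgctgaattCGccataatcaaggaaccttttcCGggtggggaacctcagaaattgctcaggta
Tlr11 promoter, chr14:50357664-50357963, plus strand: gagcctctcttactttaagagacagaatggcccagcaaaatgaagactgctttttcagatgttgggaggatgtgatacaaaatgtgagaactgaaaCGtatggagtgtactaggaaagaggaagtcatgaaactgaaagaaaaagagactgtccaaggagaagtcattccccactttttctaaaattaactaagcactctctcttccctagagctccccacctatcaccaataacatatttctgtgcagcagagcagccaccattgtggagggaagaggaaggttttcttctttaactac
Of the 300 bases of the A1cf promoter, 3A6 regions covered 273 and 300 at 16 and 20 cycles and E1 regions covered 229 and 300. For Tlr11 the covered bases were 291 and 300 with 3A6 and 120 and 220 with E1. The next pair had regions of both 3A6 lists and of no E1 list: Sult1b1, a sulfotransferase of liver and gut, with 182 and 294 bases covered by 3A6, and Mmp10, the secreted metalloproteinase stromelysin-2, with 133 and 137.
Sult1b1 promoter, chr5:87538146-87538445, minus strand: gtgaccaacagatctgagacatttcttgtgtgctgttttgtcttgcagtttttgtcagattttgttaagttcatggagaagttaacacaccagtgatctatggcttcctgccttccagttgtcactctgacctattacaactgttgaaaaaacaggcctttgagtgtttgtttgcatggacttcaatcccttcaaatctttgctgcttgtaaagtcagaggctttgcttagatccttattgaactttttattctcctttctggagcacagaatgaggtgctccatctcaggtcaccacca
Mmp10 promoter, chr9:7502092-7502391, plus strand: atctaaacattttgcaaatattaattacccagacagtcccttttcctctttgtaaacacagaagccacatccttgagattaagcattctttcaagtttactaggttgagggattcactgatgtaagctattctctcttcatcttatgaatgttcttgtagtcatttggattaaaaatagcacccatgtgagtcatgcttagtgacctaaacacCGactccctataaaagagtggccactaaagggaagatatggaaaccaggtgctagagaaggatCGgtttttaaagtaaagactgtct
The last pair had regions of both E1 lists and of no 3A6 list: Mbl1, a mannose-binding lectin made in the liver, with 143 and 141 bases covered by E1, and Smr2, a submaxillary gland protein gene, with 79 and 81. The class of each pair refers to these 300 bases alone. Within 1 kb of the ends of Smr2 the widest 3A6 regions measured 278 and 814 bp at 16 and 20 cycles. For Mmp10 the widest E1 region there measured 444 bp at 20 cycles.
Mbl1 promoter, chr14:41151206-41151505, plus strand: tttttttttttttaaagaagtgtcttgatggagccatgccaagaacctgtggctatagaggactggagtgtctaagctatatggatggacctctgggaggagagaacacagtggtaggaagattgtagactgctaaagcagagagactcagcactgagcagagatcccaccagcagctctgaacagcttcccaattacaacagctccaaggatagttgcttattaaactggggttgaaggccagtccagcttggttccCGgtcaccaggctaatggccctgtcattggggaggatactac
Smr2 promoter, chr5:88086306-88086605, plus strand: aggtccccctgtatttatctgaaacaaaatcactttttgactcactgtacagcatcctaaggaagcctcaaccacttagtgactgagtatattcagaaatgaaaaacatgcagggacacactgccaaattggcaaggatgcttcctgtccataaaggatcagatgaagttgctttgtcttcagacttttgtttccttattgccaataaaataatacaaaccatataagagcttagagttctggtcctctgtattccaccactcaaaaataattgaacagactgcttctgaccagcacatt
Promoters seen by 3A6 alone and by E1 alone had similar base composition, with a median GC content of 41.5% and 39.7% at 16 cycles and 46.2% and 43.7% at 20 cycles, against 56.3% for all promoters.

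At the scale of megabases the antibodies gave nearly the same map. Over 2571 bins of 1 Mb, the percent covered by 3A6 and by E1 correlated with r = 0.959 at 16 cycles and r = 0.989 at 20 cycles, and with 0.954 and 0.989 after the mean of each chromosome was taken out. The bins share the genome's base composition and mappability, so these coefficients are descriptions. The same antibody compared across sonication lengths gave lower values, 0.895 for 3A6 and 0.833 for E1. Of the 257 most covered bins of each list, 89.5% at 16 cycles and 93.4% at 20 cycles were the same bins with both antibodies. Equal shares of coverage were packed more tightly with E1: 50% of its covered length lay in 6.03% and 8.64% of bins, against 9.49% and 10.8% for 3A6.

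Single segments show the levels, here in the bins that leaned most to 3A6 at both lengths. The bin of chromosome 2 from 169000001 to 170000000, which holds Tshz2, a teashirt zinc finger gene, was 7.77% covered by 3A6 and 3.79% by E1 at 16 cycles. At 20 cycles the same bin was 34.7% and 30.1% covered, the highest value of either 20-cycle list. The bin around Bmp2, a bone morphogenetic protein gene (chromosome 2, 133000001 to 134000000), was 7.45% and 2.68% covered at 16 cycles and 19.5% and 16.6% at 20 cycles. A bin with 49 genes, nearly all olfactory receptors (chromosome 2, 87000001 to 88000000), was 5.45% and 2.42% covered at 16 cycles and 13.5% and 10.0% at 20 cycles. Ranked by the smaller of the differences at 16 and 20 cycles, these 3 bins had the largest excess of 3A6; other bins exceeded some of them at a single length. E1 covered more than 3A6 at both lengths in 9 bins, 0.350% of all, and by at most 0.12 percentage points in the 3 most E1-leaning of them.

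**Figure D1:**
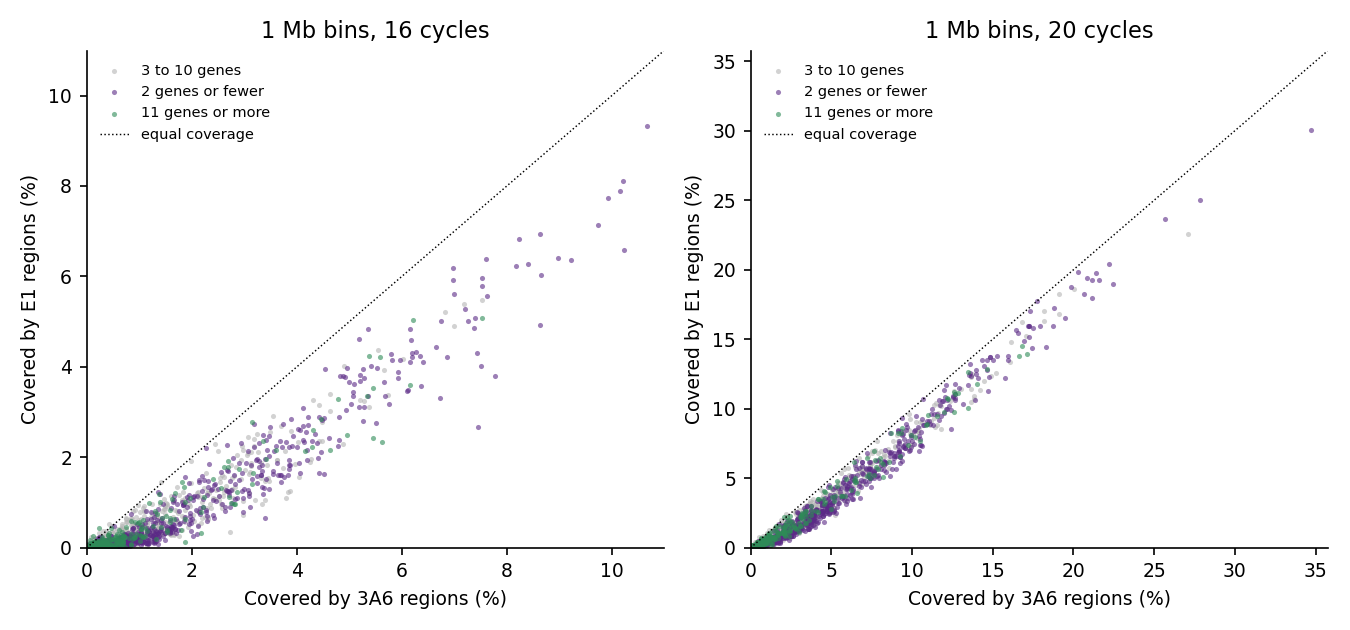
Percent of each 1 Mb bin covered by 3A6 regions (horizontal axis) and by E1 regions (vertical axis) at 16 cycles (left) and 20 cycles (right), coloured by the number of protein-coding genes in the bin; the dotted line marks equal coverage. The points follow 1 curve under the line (r = 0.959 and 0.989), and most of the highly covered bins have 2 genes or fewer.

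Region by region the lists shared much less. At 16 cycles 7.29% of 3A6 regions (95% interval 7.12 to 7.47) overlapped an E1 region by at least 1 bp, and 14.4% of E1 regions (14.0 to 14.7) overlapped a 3A6 region. At 20 cycles the shares were 22.0% (21.8 to 22.2) and 28.3% (28.0 to 28.5). Over the lengths this was 14.7% ± 10.4 of 3A6 regions and 21.3% ± 9.82 of E1 regions (SD, n = 2). The shared base pairs exceeded what the covered share of the spans gives 9.73-fold at 16 cycles and 7.19-fold at 20 cycles, and coverage was raised around the regions as well as on them. E1 covered 3.88% of 3A6 region centres and still 2.35% of positions 10 kb away at 16 cycles, a ratio of 1.65, and the ratio was 1.40 at 20 cycles. For 3A6 coverage around E1 centres the ratios were 1.63 and 1.40. Wide regions were shared more often: 50.04% of 3A6 regions of 600 bp or more overlapped E1 at 20 cycles, against 10.8% of those under 150 bp. In windows of 200 bp at region centres, which take out the width itself, these shares were 29.2% and 13.8%.

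Against lists of the other sonication length, regions coincided more with the same antibody than with the other antibody. Of 3A6 regions at 16 cycles 48.7% overlapped a 3A6 region at 20 cycles, and for E1 the share was 51.7%. With the other antibody at 20 cycles these shares were 19.1% and 24.7%. In the other direction, against the shorter 16-cycle lists, the shares were 22.8% and 15.6%, and 5.88% and 11.4% with the other antibody. For E1 at 20 cycles this 15.6% was below the 28.3% that overlapped the longer 3A6 list of 20 cycles. Within an antibody the shared base pairs exceeded the covered share of the spans 17.3-fold for 3A6 and 25.3-fold for E1. Coverage at the centre was 4.48 to 6.54 times that at 10 kb in these same-antibody comparisons. At 0.5 kb from the centre it fell below the 10 kb level, to 4.60% for 3A6 and 3.56% for E1 around 16-cycle regions, a dip not seen between antibodies.

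The match within an antibody was nearly exact in position, and it was not limited to lists of one protein. This was examined after the values above were known. Of the centres of 3A6 intervals at 20 cycles with a 3A6 centre of the 16-cycle list within 200 bp, 89.1% had it within 10 bp; for E1 the share was 89.9%. Between 3A6 and E1 at 20 cycles only 6.201% of centres within 200 bp lay within 10 bp, close to the 5.00% that evenly spread centres would give, and at 16 cycles the share was 7.23%. Of 3A6 centres at 20 cycles within 200 bp of another protein's centre, 89.8% for Lap2alpha, 89.7% for BRG1 and 89.1% for CHD4 lay within 10 bp. For E1 at 20 cycles these shares were 6.08%, 6.46% and 5.50%, while it was 91.8% with the E1 list of KO cells. The 3A6 list of KO cells at 20 cycles, which has overlapping intervals like the E1 lists, gave 56.7% with 3A6 and 6.04% with E1. These are shares of nearby centres alone. Of all 3A6 centres at 20 cycles, 19.9% lay within 10 bp of a 3A6 centre of the 16-cycle list. At 20 cycles this share was 8.585% for Lap2alpha, 4.54% for BRG1, 2.16% for CHD4 and 0.797% for E1. Intervals listed with the same start and end followed the same division: 438 between the 3A6 lists of 16 and 20 cycles, 351 between the E1 lists, 146 between 3A6 and Lap2alpha at 20 cycles and 0 between 3A6 and E1 at 20 cycles. The sources used here do not give the control library or calling settings of each list, and whether lists with coinciding centres share reads or a control was not tested. Every overlap below between a lamin A/C class and another list has to be read beside these shares.

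**Figure D2:**
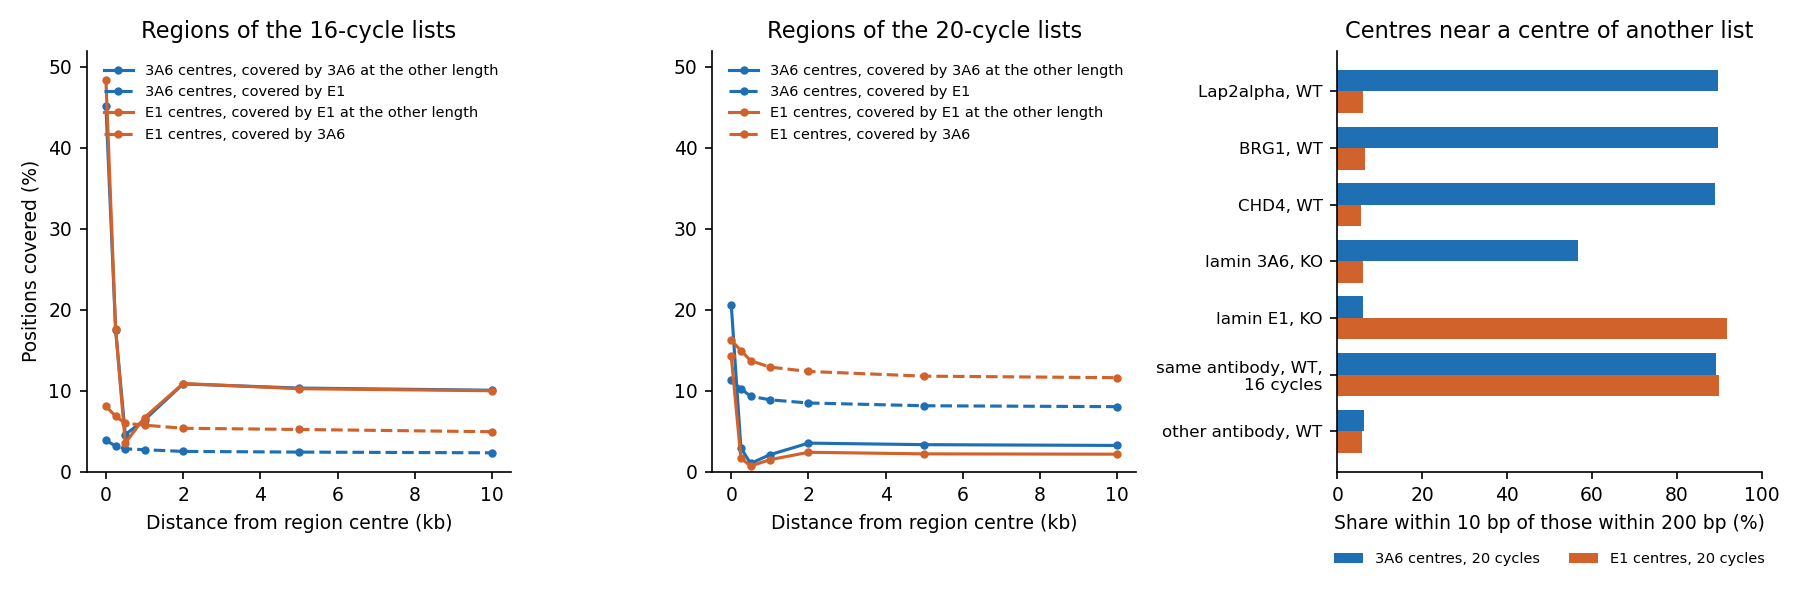
Left and middle: percent of positions covered by another list (vertical axis) at distances from 0 to 10 kb from the centres of 16-cycle and 20-cycle regions, with solid lines for the same antibody at the other length and dashed lines for the other antibody. Right: of 20-cycle interval centres within 200 bp of a centre of another list, the percent within 10 bp; 3A6 reaches 89.8% with Lap2alpha and 6.201% with E1.

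**Figure D3:**
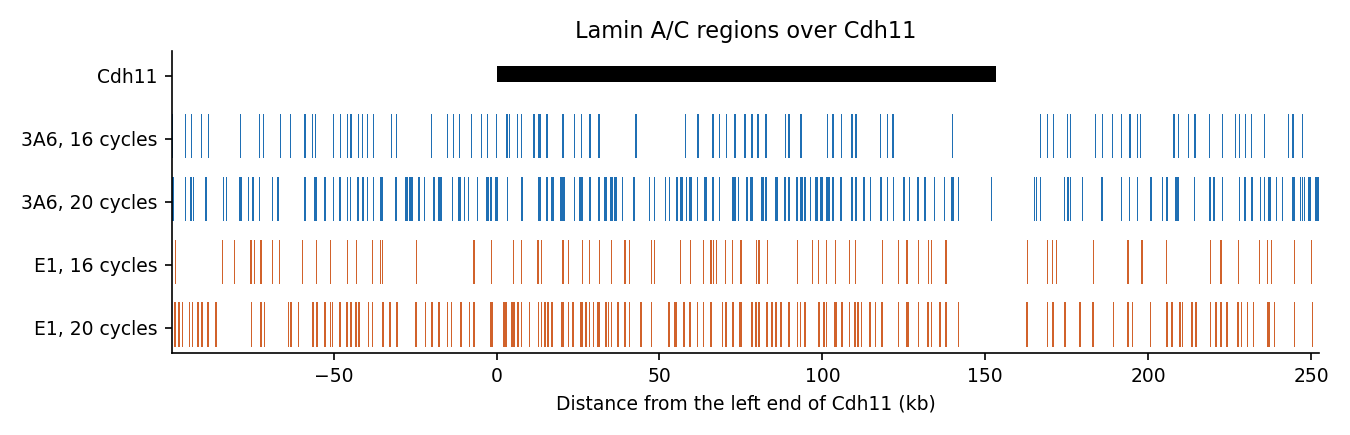
Regions of the 4 lists over Cdh11 and its flanks, by distance in kb from the left end of the gene; the black bar is the gene and each coloured mark is 1 region at its true width. Regions spread over the gene in all 4 lists; of the 44 3A6 regions at 16 cycles, 36 overlap a 3A6 region at 20 cycles and 17 overlap an E1 region at 16 cycles.

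Cdh11, which encodes cadherin-11, an adhesion protein of fibroblasts and bone-forming cells, shows both scales in 1 gene (chromosome 8, 102632095 to 102785493). It was 11.1% covered by 3A6 and 9.44% by E1 at 16 cycles, and 24.2% and 23.8% at 20 cycles. The levels were close at each length, yet of 44 3A6 regions and 45 E1 regions at 16 cycles only 17 and 18 overlapped the other antibody. At 20 cycles 35 of 68 and 36 of 75 did. Against the same antibody at the other length, 36 of the 44 and 39 of the 45 overlapped from 16 cycles, and 36 of the 68 and 38 of the 75 from 20 cycles, where the other list was the shorter one.

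Joined into a union, the regions of the lists fell into 3 classes. At 16 cycles 6247 union regions (5.06%) were seen by both antibodies, 79757 (64.6%) by 3A6 only and 37507 (30.4%) by E1 only. At 20 cycles the numbers were 39590 (13.8%), 142617 (49.9%) and 103663 (36.3%). Regions seen by both were wider, with a median of 451 bp at 16 cycles and 636 bp at 20 cycles, against 248 and 296 bp for 3A6 only and 250 and 290 bp for E1 only. A region of the first class joins at least 1 region of each antibody, which by itself widens it.

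All 3 classes lay in gene-poor sequence, with little between them. Gene-rich bins, those with 11 or more protein-coding genes in 1 Mb, make up 25.6% of the spans. By covered length they held 12.4% of regions seen by both, 11.4% of 3A6-only and 10.6% of E1-only regions at 16 cycles. At 20 cycles they held 13.2%, 12.4% and 12.2%. Gene-poor bins, with 2 genes or fewer, make up 32.4% of the spans. Of the covered length they held 60.9%, 56.3% and 59.6% at 16 cycles, then 53.2%, 53.7% and 54.3% with 20 cycles. The shares were thus closer to one another than to the genome, and the gap between antibodies was smaller at 20 cycles. Regions within 1 kb of a protein-coding gene end made up 1.44%, 1.31% and 1.17% of the classes at 16 cycles and 1.59%, 1.49% and 1.42% at 20 cycles, below the 2.98% of the spans that such windows cover. Median distances to a gene end were 185, 155 and 170 kb at 16 cycles and 154, 148 and 154 kb at 20 cycles.

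Over the whole lists, E1 differed from 3A6 by −0.334 ± 0.390 percentage points in the gene-rich share of covered length, by 1.71 ± 1.91 points in the gene-poor share and by −0.0938 ± 0.0279 points in the share of regions at gene ends (SD, n = 2). The first and second of these differences are no larger than the spread between lengths. They also rested on chromosomes 3, 8, 17, 19 and X: without these the gene-rich difference was 0.837 points and the gene-poor difference −0.0016. The gene-end difference shrank to −0.00473 points without these chromosomes and was 0.0130 with regions of 300 bp or more. Coverage fell with gene number for both antibodies, except for 3A6 at 16 cycles in the densest bins. In bins with no gene it was 1.79% with 3A6 and 0.975% with E1 at 16 cycles and 4.60% and 3.39% at 20 cycles. In bins of 21 or more genes it was 0.419%, 0.187%, 1.19% and 0.858%. Bins of 11 to 20 genes had 0.386% with 3A6 and 0.189% with E1 at 16 cycles. The ratio of E1 to 3A6 coverage over the 6 density classes ran from 0.446 to 0.545 at 16 cycles and from 0.718 to 0.746 at 20 cycles.

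Chromosomes differed more than density classes did. Chromosome 8 was the most covered in all 4 lists, with 2.50% and 1.70% by 3A6 and E1 at 16 cycles and 5.97% and 5.24% at 20 cycles. Chromosome 13 was the least covered, with 0.1995%, 0.0374%, 0.971% and 0.545%, leaving out Y, which was nearly bare. The contrast was steeper with E1: its ratio of chromosome 8 to 13 was 45.5 at 16 cycles and 9.62 at 20 cycles, against 12.5 and 6.14 with 3A6. E1 coverage relative to 3A6 was lowest on chromosome 12, with ratios of 0.162 and 0.514. It was highest on X at 16 cycles, 0.684, and on chromosome 8 at 20 cycles, 0.878. Chromosomes 3, 8, 17, 19 and X, 22.6% of the spans, held 49.1% and 63.4% of the length covered by 3A6 and E1 at 16 cycles and 36.7% and 41.2% at 20 cycles. The same chromosomes held 53.2% and 38.5% of Lap2alpha coverage but 24.2% and 24.5% of BRG1 coverage.

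**Figure D4:**
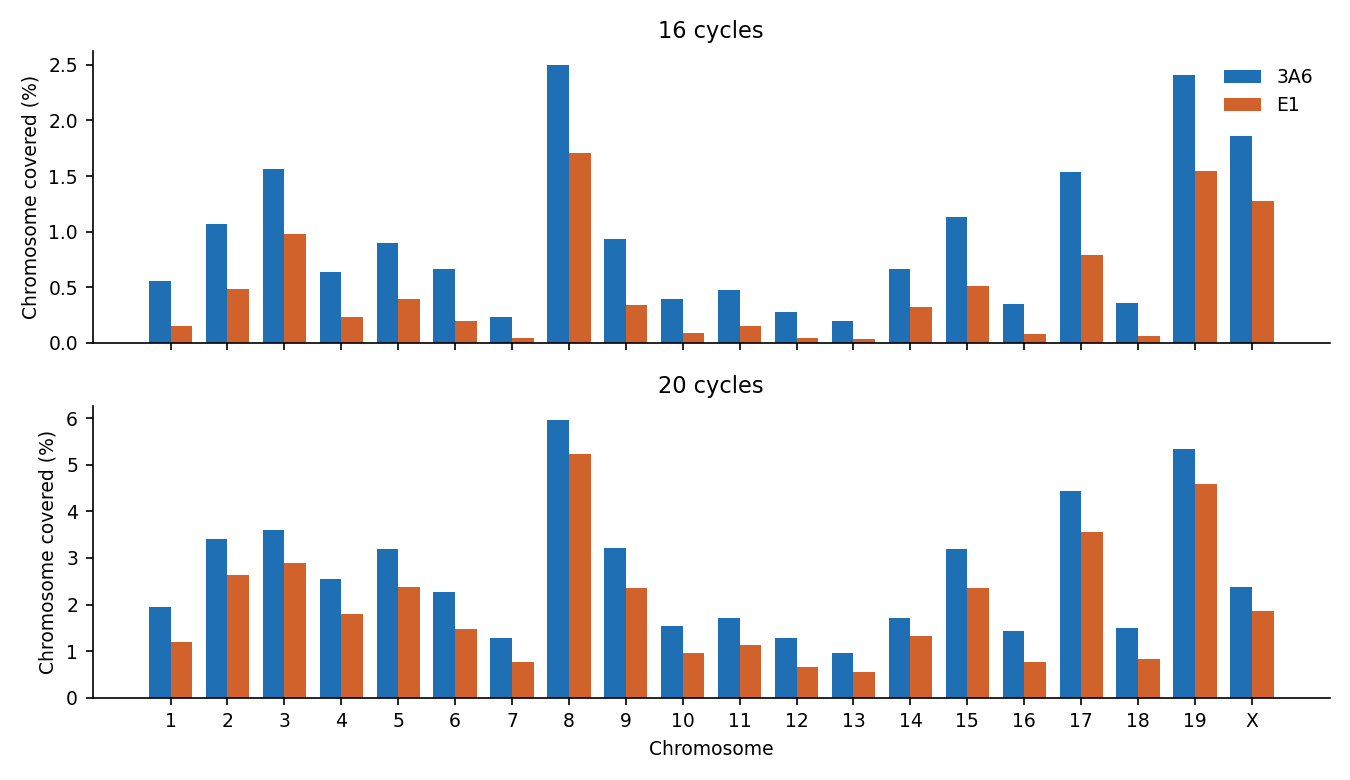
Percent of each of chromosomes 1 to 19 and X covered by 3A6 regions and by E1 regions at 16 cycles (top) and 20 cycles (bottom), 1 library per bar. E1 bars are lower than 3A6 bars on all chromosomes drawn, chromosome 8 is highest in all 4 lists (2.50%, 1.70%, 5.97% and 5.24%), and chromosome 13 is the lowest of those drawn, Y being left out.

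The classes differed in what other lists they met. Lap2alpha, the partner of nucleoplasmic lamin A/C, overlapped 22.1% of regions seen by both antibodies, 11.7% of 3A6-only and 3.97% of E1-only regions at 16 cycles. At 20 cycles these values were 12.6%, 9.06% and 2.03%. The difference between regions seen by both and by 1 antibody was 9.70 ± 4.47 points over the lengths (SD, n = 2), and 2.53 points when an overlap had to take up 50% of the region. Under that rule the difference was 5.27 points at 16 cycles and −0.201 at 20 cycles, so that its direction turned at 20 cycles. BRG1, the ATPase of SWI/SNF remodellers, overlapped 2.25% of 3A6-only and 1.55% of E1-only regions at 16 cycles and 5.21% and 1.04% at 20 cycles. CHD4, the ATPase of the NuRD complex, overlapped 2.58% and 1.54% at 16 cycles, then 2.22% and 0.4997% with 20 cycles. At 16 and 20 cycles Lap2alpha regions covered 0.658% and 0.966% of the spans, BRG1 1.62% and 3.70%, and CHD4 0.9045% and 2.05%. E1-only regions met BRG1 near that covered share at 16 cycles, and BRG1 and CHD4 below it at 20 cycles. For 3A6-only regions the CHD4 overlap at 20 cycles was near it. These measures are not alike: an overlap counts from 1 bp, so the width of regions raises it above the covered share. Values near the covered share can therefore lie below the level of unrelated regions, which was not computed. The 3A6-only class was thus above the E1-only class for each protein at each length, by 1.45- to 5.01-fold. Of 3A6 centres within 200 bp of a centre of these lists, most lay within 10 bp of it.

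Each antibody-specific class met the KO list of its own antibody more often than the other class did. Most regions of each class still had no overlap with that list. The KO 3A6 lists covered 1.655% and 2.27% of the spans at 16 and 20 cycles, and the KO E1 lists 1.08% and 3.06%. KO 3A6 regions overlapped 17.3% of 3A6-only and 3.85% of E1-only regions at 16 cycles and 26.7% and 9.53% at 20 cycles. KO E1 regions overlapped 6.87% and 26.0% at 16 cycles, and at 20 cycles 14.5% and 48.2%. The class seen by both met KO E1 most often, 34.7% and 60.4%. It met KO 3A6 in 17.3% and 37.3% of its regions. Of the 340422 union regions of the 4 lists, 4777 (1.40%) were present in all of them, 25970 (7.63%) in both 3A6 lists and no E1 list, and 12350 (3.63%) in both E1 lists and no 3A6 list. Lap2alpha at 16 cycles overlapped 21.7%, 12.2% and 2.34% of these sets, and at 20 cycles 19.1%, 12.4% and 1.82%.

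**Figure D5:**
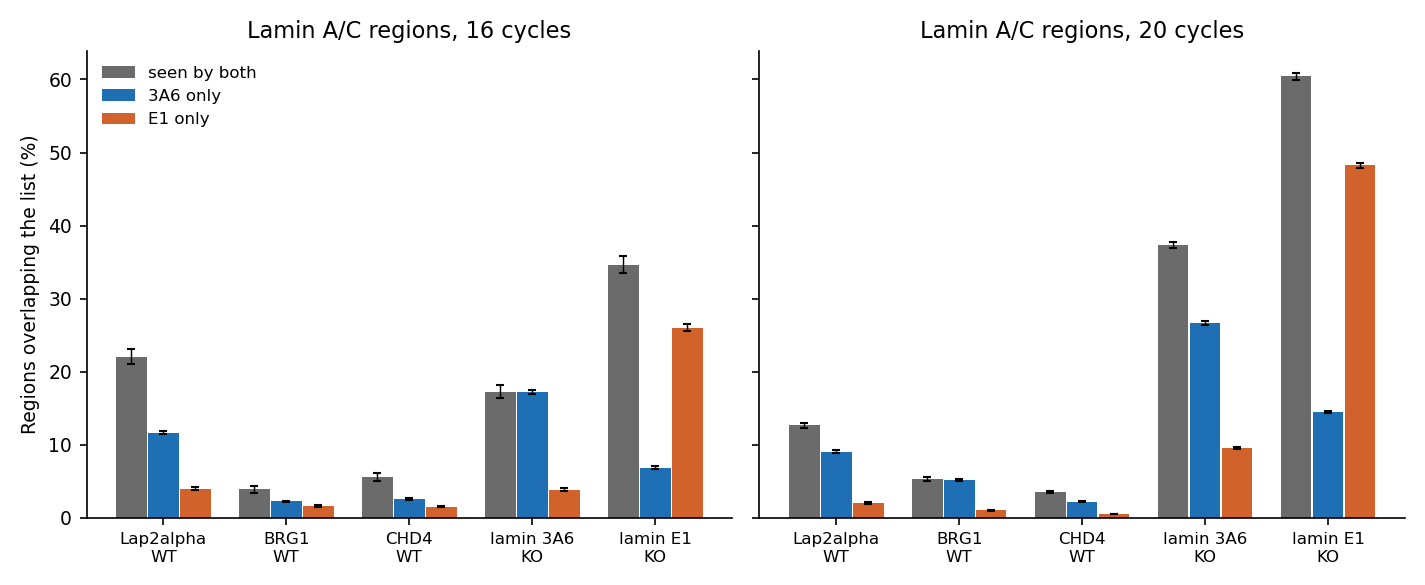
Percent of lamin A/C union regions seen by both antibodies, by 3A6 only and by E1 only (vertical axis) that overlap the list named under each group of bars, at 16 cycles (left) and 20 cycles (right); error bars are 95% Wilson intervals and cover counting error only. The 3A6-only bars stand above the E1-only bars for Lap2alpha (11.7% against 3.97% at 16 cycles), BRG1, CHD4 and KO 3A6, and below them for KO E1.

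Genes were compared by the percent of the gene body covered, for the 16849 protein-coding genes of 5 kb or more. At 16 cycles 1193 gene bodies (7.08%) held regions of both antibodies, 1426 (8.46%) of 3A6 only and 246 (1.46%) of E1 only. At 20 cycles these were 1728 (10.3%), 820 (4.87%) and 136 (0.807%). In 13120 genes (77.9%) no list had a region. Of the genes of E1, 82.9% at 16 cycles and 92.7% at 20 cycles were also seen by 3A6. Coverage was higher with 3A6 at both lengths in 1339 genes (7.95%) and with E1 in 75 (0.445%). With each list's total length divided out, the numbers were 868 (5.15%) and 282 (1.67%). Differences of 1 point or more at both lengths were found in 479 and 26 genes. The 918 genes (5.45%) seen in all 4 lists were long and lay in sparse surroundings. Their median was 131.7 kb and 6 genes in their bin, against 25.8 kb and 14 for all genes of this size. A body counted as seen from 1 bp of a region, which by itself favours long genes.

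With olfactory, vomeronasal and predicted genes left out, the 8 genes of 5 kb or more best covered in all 4 lists were Zfp981, Mup5, Zfp982, Zfp985, Cdh11, Chil4, Esp31 and Smr2. Mup5, a major urinary protein gene (chromosome 4, 61831319 to 61858043), was 13.7% covered by 3A6 and 16.7% by E1 at 16 cycles and 31.8% and 31.1% at 20 cycles. The zinc finger genes Zfp981, Zfp982 and Zfp985, which lie on chromosome 4, stood together. Zfp982 was 17.9% and 13.6% covered at 16 cycles and 31.0% and 27.1% at 20 cycles. Zfp981 was 14.4% and 18.8%, then 23.1% and 22.3%, and Zfp985 16.5% and 11.8%, then 20.0% and 25.3%. Their close sequence copies make reads hard to place, so values of single Zfp and Mup genes are uncertain. Chil4, a chitinase-like protein gene (chromosome 3), went against the trend of length, with 24.1% and 16.7% at 16 cycles and 11.4% and 9.18% at 20 cycles.

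Some genes leaned to 3A6 at both lengths. Oosp2, an oocyte-secreted protein gene (chromosome 19), was 7.83% covered by 3A6 and bare with E1 at 16 cycles, and 10.5% and 0.316% covered at 20 cycles. The metalloproteinase genes Mmp12 and Mmp10, both on chromosome 9, also leaned to 3A6. Mmp12, macrophage elastase, was 6.39% and 0% covered, then 14.1% and 2.96%. Mmp10 was 9.24% and 3.19%, then 13.04% and 0%. Gbp4, an interferon-induced guanylate-binding protein gene (chromosome 5), was 7.41% and 0.949% covered, then 23.1% and 7.41%. Tlr11 was 6.0% and 0%, then 26.2% and 12.3%. Sult1c1, a sulfotransferase gene (chromosome 17), was covered by both, though more by 3A6, with 9.92% and 4.163% at 16 cycles and 41.8% and 23.4% at 20 cycles. Adam26a, a testis ADAM protease gene on chromosome 8, was 11.1% and 5.60%, then 11.3% and 5.55%, and its neighbour Adam26b was 7.74% and 0%, then 12.8% and 6.29%. These genes were named for the size of these differences, so the values are a description.

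Fewer genes leaned to E1. Defb50, a beta-defensin gene (chromosome 8), was 2.55% covered by 3A6 and 11.7% by E1 at 16 cycles, and 16.96% and 22.9% at 20 cycles. Esp31, an exocrine gland pheromone peptide gene (chromosome 17), was 8.85% and 13.4% covered, then 13.6% and 26.3%. Pramel15, of the PRAME-like family expressed in germ cells (chromosome 4), was bare with 3A6 and 3.83% covered by E1 at 16 cycles, and 15.9% and 31.0% covered at 20 cycles. Ms4a14, Smok2b, Triml2, Chil3 and Cyp2c67 also belonged here. Chil3, the neighbour of Chil4, was 13.2% and 18.3%, then 7.67% and 10.8% covered, the opposite lean from Chil4.

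Gene ends were counted where a region lay within 1 kb of either end of 21883 protein-coding genes. The counts were 966 (4.41%) with 3A6 and 456 (2.08%) with E1 at 16 cycles, and 1961 (8.96%) and 1515 (6.92%) at 20 cycles. Seen by both, by 3A6 only and by E1 only were 228 (1.04%), 738 (3.37%) and 228 (1.04%) genes at 16 cycles, and 1085 (4.96%), 876 (4.003%) and 430 (1.96%) at 20 cycles. The genes seen by both made up 23.6% of the 966 3A6 genes and 228 of the 456 E1 genes at 16 cycles, and 55.3% and 71.6% of them at 20 cycles. All 4 lists had a region at 169 genes (0.772%), 110 with lists of equal length and 29 with regions of 300 bp or more. Among the widest were the ends of Defb8, another beta-defensin gene, Ins1, a mouse insulin gene, Ugt2b1, a liver glucuronosyltransferase gene, and Cyp2c39, a liver cytochrome P450 gene. The widest region at Ins1 measured 636 and 406 bp with 3A6 and E1 at 16 cycles and 1328 and 746 bp at 20 cycles.

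Both 3A6 lists but no E1 list had a region at 145 genes (0.663%), and both E1 lists but no 3A6 list at 25 (0.114%). With lists of equal length these counts were 63 and 41. The first set included Sis, the intestinal sucrase-isomaltase gene, with regions of 764 and 592 bp, Clec4e, a C-type lectin receptor of macrophages, with 360 and 366 bp, and Dpp6, a neuronal potassium channel subunit gene, with 388 and 404 bp. The second included Trpm3, a cation channel gene, with 266 and 1054 bp, Chrna6, a nicotinic receptor subunit gene, with 220 and 374 bp, and Fancb, a Fanconi anaemia DNA repair gene, with 294 and 292 bp. A missing gene-end region did not mean a bare gene: Trpm3 was 6.21% and 14.3% covered by 3A6 over its body.

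The classes of genes were much alike for both antibodies. Olfactory, vomeronasal and taste receptor genes, 6.70% of protein-coding genes, made up 35.96%, 34.0% and 30.3% of the gene ends seen by both, by 3A6 only and by E1 only at 16 cycles, and 30.1%, 32.3% and 28.8% at 20 cycles. Of 1110 olfactory receptor genes, 288 had ends seen by both at 20 cycles, 238 by 3A6 only and 104 by E1 only. At 16 cycles the numbers were 68, 225 and 64. These genes share sequence, lie in clusters and are not independent. Of 123 V2R vomeronasal receptors 24, 17 and 8 were seen at 20 cycles, and of 230 V1R receptors 15, 27 and 12.

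The families of secreted and metabolic proteins were not alike in how the antibodies shared their gene ends. Over all genes, 1085 ends were seen by both at 20 cycles, 876 by 3A6 only and 430 by E1 only. Of 70 defensin genes, which encode antimicrobial peptides, 29 were seen by both at 20 cycles, 2 by 3A6 only and 1 by E1 only, and 11 were seen in all 4 lists. Of 99 cytochrome P450 genes, which oxidise steroids and xenobiotics, the numbers were 26, 5 and 6, and of 22 UDP-glucuronosyltransferase genes 8, 1 and 0. Of 63 serpin genes, most of which encode protease inhibitors, they were 2, 5 and 3, and of 22 major urinary protein genes 2, 2 and 0. At 16 cycles the numbers were 11, 5 and 6 for defensin genes and 8, 14 and 6 for cytochrome P450 genes. More cytochrome P450 ends were thus seen by 3A6 only than by both at that length. For UDP-glucuronosyltransferase genes the numbers were 6, 2 and 1, for serpin genes 1, 0 and 0, and for major urinary protein genes 0, 1 and 1. Over all genes they were 228, 738 and 228. The defensin genes named here lie close together on chromosome 8, the most covered chromosome, and are not independent. On chromosome 8, 34.7% of 3A6 regions overlapped E1 at 20 cycles, against a median of 19.1% over the chromosomes. In the cytochrome family Cyp3a11 was 7.79% and 9.22% covered by 3A6 and E1 at 16 cycles and 39.4% and 28.7% at 20 cycles. No C-type lectin or killer receptor gene body was covered by E1 at 16 cycles. The mean body coverage of these 62 genes was 0.326% with 3A6 and 0% with E1 at 16 cycles, and 0.898% and 0.330% at 20 cycles, against 0.385%, 0.176%, 1.12% and 0.819% for all genes. Coverage was higher with 3A6 at both lengths in 7 of the 62 and with E1 in 0, beside 1431 (6.54%) and 95 (0.434%) of all genes of any length.

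Most long neuronal genes held regions. Of 28 such genes 25 were seen by 3A6 and 21 by E1 at 16 cycles, 25 and 24 at 20 cycles, and 1 by no list. Of all 16849 genes of 5 kb or more, 2619 and 1439 were seen at 16 cycles and 2548 and 1864 at 20 cycles. A gene counted as seen from 1 bp, which favours long genes, and these genes were listed as long. The mean body coverage was 1.64% with 3A6 and 0.794% with E1 at 16 cycles and 4.32% and 3.10% at 20 cycles, and 3A6 was higher at both lengths in 23 of 28, beside 7.95% of all genes of 5 kb or more, most of which held no region. Csmd1, a complement-regulating membrane protein gene of the brain, was 6.83% and 4.17% covered at 16 cycles, then 16.3% and 15.0% with 20 cycles. Among 35 cadherin and protocadherin genes, mean coverage was 1.43%, 0.917%, 4.61% and 3.75%. After Cdh11, Cdh13 had 4.77% and 3.42% at 16 cycles and 25.01% and 22.0% at 20 cycles, and Cdh4 1.47% and 0.944%, then 26.5% and 22.2%. Cdh4 had the widest gap between lengths among these cadherins, with both antibodies.

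Several lists of genes had no region at their ends. No gene end of 32 fibroblast and matrix genes, 24 nuclear envelope genes, 35 cell cycle genes, 25 housekeeping genes, 39 HOX genes or 53 keratin genes had a region in any of the 4 lists, beside 2709 of all 21883 genes (12.4%) with a region of at least 1 list. The mean body coverage of these lists was at most 0.0801% with either antibody at either length. Of the matrix genes, the only body coverage was 0.113% of Fbn1, the fibrillin-1 gene, with 3A6 at 16 cycles. Cdh11, which fibroblasts also use and which is not on these lists, was among the best covered genes. Of 80 ribosomal protein genes 2 had an end region with 3A6 at 20 cycles, and of 62 replication-dependent histone genes 1 had one with E1 at 16 cycles.

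Marker genes of other skin cell types varied. The 14 keratinocyte genes had a mean body coverage of 0.574% with 3A6 and 0% with E1 at 16 cycles, above and below all genes. At 20 cycles the means were 0.915% and 0.0801%, both below all genes. Of the 14 gene bodies, 10 held no region in any list. Lor, the loricrin gene of keratinocytes, was the most covered of them, with 6.89% and 11.8% with 3A6 at 16 and 20 cycles and none with E1. Flg, also on this list, went the other way, with 1.12% with E1 at 20 cycles and none with 3A6. Dsc3, a desmosomal cadherin gene, had an end region with 3A6 at 16 cycles. Of 7 melanocyte genes, Tyrp1, a melanin synthesis gene, had 1.93% with 3A6 at 16 cycles and Tyr, the tyrosinase gene, 0.457% with 3A6 at 20 cycles. Of 11 endothelial genes, Tek, a receptor gene, had 0.233% and 0.146% with 3A6 alone, and 4 were seen by 3A6 and 1 by E1 at 20 cycles. The 10 leukocyte genes held no region. Region lists carry no expression, so the cell type label was not checked by these markers.

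Other gene types were counted in the same way. Regions of 3A6 and E1 at 16 cycles touched 12.8% and 6.43% of 12727 long noncoding RNA genes, and 18.3% and 14.0% at 20 cycles. For protein-coding genes these shares were 12.97%, 7.03%, 13.9% and 10.4%. Pseudogenes had more covered length than protein-coding genes, with 0.924%, 0.521%, 2.88% and 2.08% of their base pairs against 0.599%, 0.284%, 1.78% and 1.31%, in the order 3A6 and E1 at 16 cycles, then at 20 cycles. Of 408 tRNA genes 0.245% were touched by 3A6 and 0.490% by E1 at each length, and E1 at 16 cycles touched 0% of microRNA genes themselves. Within 1 kb of a microRNA gene lay regions for 20 and 11 of 1228 genes at 16 cycles and 46 and 37 at 20 cycles. The microRNA genes with a region of all 4 lists nearby were Mir204, which lies within Trpm3 on chromosome 19, and Mir551b on chromosome 3.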

How the data were processed

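ChIP-seq region lists of wildtype mouse dermal fibroblasts were compared for the lamin A/C antibodies 3A6 and E1. The authors deposited each library as intervals with 3 columns (chromosome, start and end), so the unit used is another than counts or signal: interval coordinates in base pairs, with no score. Per the submitters' processing notes the build is GRCm38 and the tools named are MACS2 2.1.4, HOMER 4.11.1, bedtools, deepTools and SAMtools. What each tool did, the threshold, the control and any pooling of libraries: not given in the sources used here. Intervals of width 0 (82 and 131 at 16 cycles, 273 and 901 at 20 cycles, for 3A6 and E1) were left out, and overlapping intervals of a list were merged.

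Genes came from the RefSeq table of the same build, which gives no strand, so gene ends include both ends. Spans run from the first to the last region of each chromosome. All values were computed with Python 3.11.15, numpy 2.4.6, pandas 2.3.3 and scipy 1.17.1, and interval functions were tested on simulated data. With 1 library per antibody and length no test was run. Read depth, and so the precision of single regions, is unknown; 4 input samples were not analysed here.

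The members, gene lists and comparisons were chosen with earlier results of these data known. Named genes followed a rule: the 8 bodies best covered in all 4 lists, the 8 leaning most to each antibody at both lengths, up to 8 gene ends per class by region width, and the leading members of 26 gene lists. Outside the gene lists, olfactory, vomeronasal and predicted genes were counted only. Cdh11 was the gene drawn in full, and the promoters shown were picked after their values were seen. Alternatives covered merging, region width, list length, chromosomes, overlap rules, bin and window sizes and each length alone. The use of unmerged intervals, the omission of 5 chromosomes, coverage as a share of each list, and the comparison of interval centres were chosen after seeing the data.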

Additional observations from a re-analysis of the deposited data

Results flagged for a closer look

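Some differences between E1 and 3A6 pointed one way at 16 cycles and the other way at 20 cycles. With 1 library each, whether the differences themselves differ was not tested. The share of covered length in protein-coding genes was lower with E1 by −1.25 percentage points at 16 cycles and higher by 0.0600 at 20 cycles. For pseudogenes the difference was 0.129 and then −0.0360 points.

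Body coverage, E1 minus 3A6, changed sign in 18 of the 138 genes that the naming rule picked. In the chromosome 4 genes Zfp981 and Mup5 the differences were 4.43 and then −0.717 points, and 3.03 and then −0.737 points. In Zfp985 they were −4.69 and 5.33, and in Smr2 −2.11 and 1.19. Defb8, a gene shorter than 5 kb, went from −2.01 to 24.5 points, and Esp4, a pheromone peptide gene of similar size, from 8.94 to −11.8. Among genes named for an E1 region at their ends, Cd209a, a dendritic cell lectin gene, had 1.32 and −4.22 points, Gpr174, a lymphocyte receptor gene, −0.438 and 2.97, and Cyp2c29, a liver cytochrome P450 gene, 1.90 and −2.97. Among leading genes of the lists, Cyp3a11 had 1.43 and then −10.7 points and Cyp3a16 −4.69 and 0.224, both liver cytochrome P450 genes. The beta-defensin genes Defb5 and Defb7 had −16.7 and 3.83, and −13.0 and 1.49. The urinary protein gene Mup20 had −0.0374 and 2.44, and the taste receptor gene Tas2r106 −6.90 and 30.2. In the olfactory receptor genes Olfr1469 and Olfr1278 the differences were 41.5 and −8.93, and −22.9 and 66.7, and in the vomeronasal receptor gene Vmn2r107 −6.20 and 2.53.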

How the results depend on the processing

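Of 85 values under alternative settings 63 kept their direction and moved by no more than 1 SD over the lengths. For counts the limit was 1.5 times. A further 19 moved more than this and 3 reversed, and for those that changed the cause was not tested. The 85 include each length taken alone, which with 2 lengths cannot lie further than 1 SD from their mean. These could not count as moved. With regions of 300 bp or more the gene-end difference reversed to 0.0130 points, genes with more 3A6 and more E1 coverage numbered 725 and 40, and gene ends of all 4 lists and of 3A6 alone 29 and 65. With both lists of a length cut to equal numbers, keeping the widest, these 4 counts were 837, 127, 110 and 63, and gene ends of E1 alone 41. Without chromosomes 3, 8, 17, 19 and X the gene-rich and gene-poor differences reversed to 0.837 and −0.0016 points and the gene-end difference was −0.00473. Windows of 5 kb gave −0.185 points, 833 gene ends of all 4 lists and 11 of E1 alone. A difference of 1 point or more left 479 and 26 genes, coverage as a share of each list gave 868 and 282, intervals as listed gave −0.133 points at gene ends, and an overlap of 50% gave 2.53 points for Lap2alpha. The SD is wide for some values: that overlap rule left 7.06% of 3A6 regions shared, and at 20 cycles alone the gene-poor and gene-rich differences were 0.357 and −0.0578 points. No replicate block was fitted, since the labels give no replicate numbers; differences between antibodies were taken within a length. Numbers of regions depend on depth and threshold, both unknown here, so list sizes are not amounts of lamin A/C.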
